A study of Mus musculus with 3 samples.

Results

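The genes described here are 10 feedback regulators and ETS transcription factors that respond to fibroblast growth factor (FGF) signalling: Spry1, Spry2, Spry4, Spred1, Spred2, Dusp6, Etv1, Etv4, Etv5 and Il17rd. They were taken by name and not by a cutoff on a measured value, but the list was chosen with earlier results of these data known. Every probe that is not a control spot and that carries one of these names in the scanner files was used, which gave 19 of 41174 probes and 10 of 27745 gene names. Spry1, Dusp6, Etv1 and Etv4 had 1 probe each, and the other 6 genes had 2 or more.

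Each of 3 Agilent whole mouse genome arrays compared RNA from Fgfrl1-/- kidney rudiments, labelled green with Cy3, with RNA from wildtype kidney rudiments, labelled red with Cy5. All animals were C57BL/6 mice, the rudiments were dissected from littermates at stage E12.5, and every RNA preparation was a pool of 6 to 9 rudiments. The comparison asks which genes act downstream of Fgfrl1, an FGF receptor that lacks the tyrosine kinase domain, when the first nephrons form. No dye was swapped, so genotype and dye cannot be told apart, and the labels do not say how many embryos a pool came from.

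FGF ligands activate tyrosine kinase receptors and, through Ras, the MAP kinases ERK1 and ERK2. The ETS factors Etv1, Etv4 and Etv5 are switched on by this cascade and carry it to target genes, while Sprouty and Spred proteins, the phosphatase Dusp6 and the membrane protein Il17rd (Sef) are induced by it and damp it. In the developing kidney, Spry1 restrains the response of the ureteric bud to Gdnf and its receptor Ret, and Etv4 and Etv5 act downstream of Ret in the bud tip.

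The probes that decide the results are shown by their first 30 bases of 60, so that the transcript each value stands for can be identified. They comprise the Spry1, Etv4 and Il17rd probes that passed the test, the other Il17rd probes, and both Spry2 probes, whose values differed. Probes of a gene are numbered by their mean signal, highest first.
Spry1 probe 1: agctgagtatttccaacccttcctgtgttt
Etv4 probe 1: tggaggcaggccaaatctaaaggcagtagc
Il17rd probe 1: atagcactgtgccatatttttacattggcg
Il17rd probe 2: gaagttatataggttaaggctggcaaacct
Il17rd probe 3: agaagcagtttatacccttccaacatcccc
Il17rd probe 4: tatgaatgaatcttgtacagaaattctgtt
Spry2 probe 1: caggaaacctttattgtaagtctctgattt
Spry2 probe 2: ccccccttttaacacatatgcaaccaacta
In the mm8 coordinates of the scanner files, the Spry1 probe lies at chr3:37835821-37835880, the Etv4 probe at chr11:101586219-101586278 and Il17rd probe 1 at chr14:25934009-25934068. No annotation of that build was used here, so whether a probe lies in coding sequence or in an untranslated region is not stated.

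Values are log2 ratios of Fgfrl1-/- over wildtype after background correction and loess normalization, so that -1 is a level 2-fold lower in Fgfrl1-/-. They are given for arrays 1, 2 and 3 in that order and then as mean ± SD (n = 3 arrays). Signals quoted beside them are normalized intensities on a linear scale, which can be compared between pools for the same probe but not between probes. A gene was called lower or higher at an adjusted p below 0.05 in a limma fit over all 41174 probes, and it was represented by its probe 1.

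The Fgfrl1 transcript served as the check of the labels. Its signal was 850 to 1411 in the wildtype pools and 294 to 608 in the Fgfrl1-/- pools, a mean log2 ratio of -1.52 ± 0.31 (SD, n = 3; limma adjusted p = 0.0332). Where this probe (chr5:108946807-108946866, mm8) lies relative to the disrupted part of the gene is not given in the sources used here. Array 1 was on a different slide and scan from arrays 2 and 3 and was read with an earlier software version. Across all probes the log2 ratios of array 1 correlated with those of arrays 2 and 3 at r = 0.106 and 0.222, and arrays 2 and 3 correlated with each other at r = 0.713. Over the 10 members the same values were 0.609, 0.623 and 0.914, a description over 10 points that share their arrays.

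All 10 members had a mean log2 ratio below 0. Spry1, Etv4 and Il17rd, 3 of the 10, were called lower in Fgfrl1-/- and none was called higher; over all gene names 0.483% were called lower and 0.342% higher by the same rule, and over all probes 0.398% and 0.289%. The median log2 ratio of the 10 genes was -0.54, against 0.01 over all gene names, whose middle 80% ran from -0.19 to 0.22. For 9 of the 10 genes, Spred2 being the exception, the ratio was below 0 on all 3 arrays, which held for 18.8% of gene names. The same 9 had an unadjusted p below 0.05, which 7.97% of gene names had in that direction. In 6 of the 10 the 3 Fgfrl1-/- signals lay below the 3 wildtype signals without overlap (7.17% of gene names), and 5 had a log2 ratio of -0.5 or lower (1.1% of gene names). Ranked from the lowest ratio over 27745 gene names, Etv4, Il17rd and Spry1 stood at positions 37, 46 and 52, and Spred2 at 12268. These are bulk samples, so fewer cells of a type and less RNA per cell cannot be told apart.

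**Figure D1:**
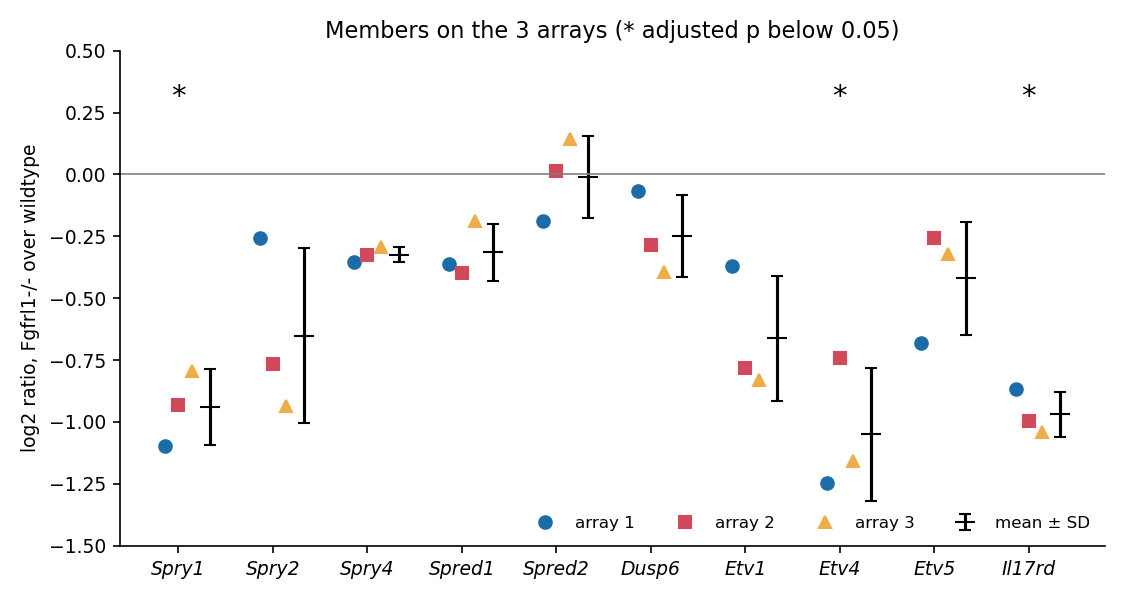
Log2 ratio of Fgfrl1-/- over wildtype (y axis) for the probe of highest mean signal of each member, with 1 point per array and the mean ± SD over 3 arrays in black. Spry1, Etv4 and Il17rd, marked with an asterisk, passed at an adjusted p below 0.05, and Spred2 is the gene whose points lie on both sides of 0.

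Among the Sprouty genes, which encode inhibitors of receptor tyrosine kinase signalling, Spry1 had the lowest ratio. Its signal was 3649, 4341 and 4170 in the wildtype pools and 1704, 2274 and 2408 in the Fgfrl1-/- pools. Every Fgfrl1-/- pool was below every wildtype pool. The log2 ratios were -1.10, -0.93 and -0.79, a mean of -0.94 ± 0.15 (SD, n = 3), 1.92-fold lower (95% confidence interval of the log2 ratio -1.16 to -0.73, adjusted p = 0.0346).

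Spry2 was measured by a pair of probes, which differed. For probe 1 (chr14:104777767-104777826) the signal was 1034, 1475 and 1464 in wildtype and 866, 868 and 766 in Fgfrl1-/- pools. The groups did not overlap, and the gap was narrowest on array 1. Its log2 ratios were -0.26, -0.76 and -0.94, a mean of -0.65 ± 0.35 (SD, n = 3), which did not pass (adjusted p = 0.110, interval -1.003 to -0.30). Probe 2, which lies 516 bases upstream on the transcribed strand, had a mean log2 ratio of -0.13 ± 0.29 (adjusted p = 0.704). It was above background on 2 of 3 arrays in the Fgfrl1-/- channel, and its ratios were on both sides of 0. Its signal was 81.3 to 124 in wildtype and 84.4 to 90.2 in Fgfrl1-/- pools.

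Spry4 did not pass with either probe. The signal of probe 1 was 87.3, 138 and 142 in wildtype and 68.4, 110 and 116 in Fgfrl1-/- pools, and the groups overlapped, with both pools of array 1 low. Within each array the Fgfrl1-/- pool was lower by nearly the same amount, with log2 ratios of -0.35, -0.33 and -0.29 that averaged -0.32 ± 0.030 (SD, n = 3; adjusted p = 0.106). The size of this value depends on the background correction: it was -0.67 with a normexp offset of 0 and -1.22 in the ratio of the scanner software, and neither passed. Probe 2 was not above background on any array in either channel.

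The Spred genes encode Sprouty-related proteins that inhibit Raf activation. The wildtype signals of Spred1 probe 1 were 1889, 3147 and 2721 and the Fgfrl1-/- signals 1472, 2386 and 2392. The groups overlapped, although the Fgfrl1-/- pool was the lower of the pair on each array. The log2 ratio was -0.36, -0.40 and -0.19, a mean of -0.32 ± 0.11 (SD, n = 3; adjusted p = 0.141). Its other probes, 10129 and 4794 bases upstream, had means of -0.10 ± 0.029 and -0.08 ± 0.21, and neither passed. Over all pools their signals were 110 to 137 and 80.2 to 111.

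Spred2 was the member nearest to 0. Its wildtype signals of 533, 629 and 643 overlapped with Fgfrl1-/- signals of 468, 635 and 710. The log2 ratios were -0.19, 0.01 and 0.14, with a mean of -0.01 ± 0.17 (SD, n = 3; adjusted p = 0.978) and a 95% interval of -0.23 to 0.21. The mean turned just above 0 without background subtraction and in the ratio of the scanner software. Spred2 probe 2 had a mean of -0.05 ± 0.25 (adjusted p = 0.897).

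Dusp6, a phosphatase that removes phosphate from ERK, did not pass. Its signal was 15710, 23182 and 22102 in wildtype and 15004, 19044 and 16821 in Fgfrl1-/- pools. The groups overlapped, and the pair on array 1 was nearly level. The log2 ratios were -0.07, -0.28 and -0.39, a mean of -0.25 ± 0.17 (SD, n = 3; adjusted p = 0.265, interval -0.47 to -0.03). With median centring in place of loess they were -0.16, -1.24 and -0.79, a mean of -0.73 that did not pass either (adjusted p = 0.186). Under that centring the median over the 4117 brightest of all probes was itself -0.39, and by array it was -0.01, -0.85 and -0.32.

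**Figure D2:**
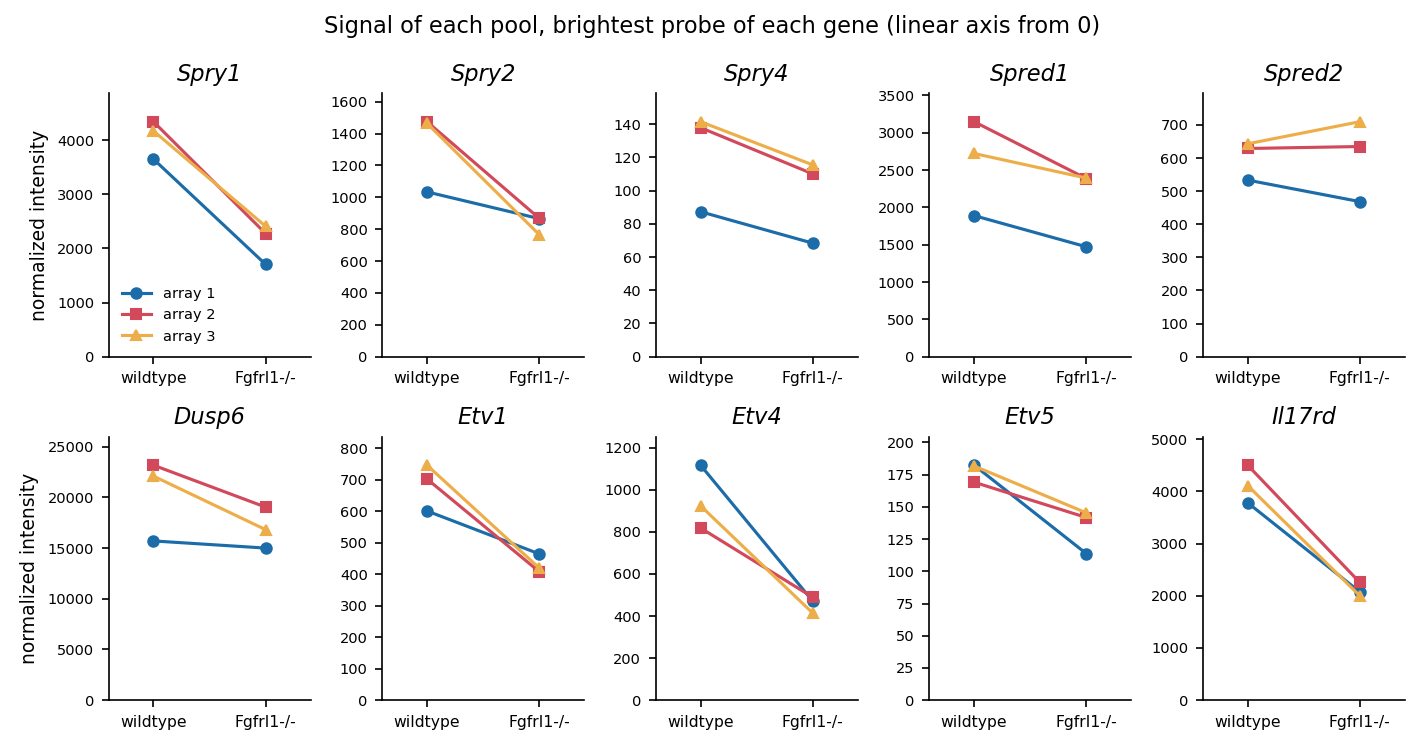
Normalized intensity (y axis, linear and starting at 0, scaled separately for each gene) of the wildtype pool and the Fgfrl1-/- pool hybridized to the same array, joined by a line, for the probe of highest mean signal of each member. The lines of Spry1, Etv4 and Il17rd fall steeply on all 3 arrays, those of Dusp6 and Spry4 fall within overlapping groups, and those of Spred2 run near level.

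Il17rd, also called Sef, is a membrane protein that antagonizes FGF receptor signalling. Probe 1 gave signals of 3781, 4500 and 4110 in the wildtype pools and 2072, 2254 and 1998 in the Fgfrl1-/- pools. The groups lay far apart relative to their spread, and the ratios were close across arrays. The log2 ratio was -0.87, -0.998 and -1.04, a mean of -0.97 ± 0.090 (SD, n = 3), 1.96-fold lower (interval -1.15 to -0.78, adjusted p = 0.0313).

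The other Il17rd probes, printed above, did not share this value. Probe 2 lies 18223 bases upstream of probe 1, at chr14:25915786-25915845, and had log2 ratios of 0.53, -0.20 and -0.12, a mean of 0.07 ± 0.40 (adjusted p = 0.893). Probe 3, 7131 bases upstream, had a mean of -0.13 ± 0.10 (adjusted p = 0.490). Over all pools the signal was 123 to 376 for probe 2 and 85.6 to 116 for probe 3. With a normexp offset of 0 probes 2 and 3 were at 0.03 and -0.28, and in the ratio of the scanner software at 0.02 and -0.31. Probe 4, 4717 bases upstream, was not above background on any array in either channel. When the probes of each gene were averaged, Il17rd had a mean log2 ratio of -0.29 and was not called. On these arrays the Il17rd result therefore rests on probe 1. The paper also reported lower Il17rd by quantitative PCR at E12.5 and by whole-mount in situ hybridization at a later stage. Those measurements are not part of these data. Which transcripts the upstream probes detect was not tested.

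The 3 ETS members form the PEA3 subfamily of transcription factors. Etv4 had the lowest mean ratio of the 10 genes. It measured 1117, 819 and 924 in wildtype and 471, 489 and 414 in Fgfrl1-/- pools. The groups did not overlap, and the wildtype pools varied more than the Fgfrl1-/- pools. Its log2 ratios were -1.25, -0.74 and -1.16, a mean of -1.05 ± 0.27 (SD, n = 3), 2.07-fold lower (interval -1.34 to -0.76, adjusted p = 0.0416).

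Etv1, at chr12:39376470-39376530, had signals of 601, 702 and 746 in wildtype and 464, 408 and 419 in Fgfrl1-/- pools, again without overlap. The log2 ratios were -0.37, -0.78 and -0.83, a mean of -0.66 ± 0.25 (SD, n = 3), which did not pass (adjusted p = 0.0796, interval -0.94 to -0.38). The array 1 value was the nearest to 0, as it was for Dusp6 and for probe 1 of Spry2 and of Il17rd.

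Etv5 was measured by a pair of probes 1029 bases apart, and they gave similar values. Probe 1 (chr16:22298589-22298648) had signals of 182, 169 and 182 in wildtype and 114, 142 and 145 in Fgfrl1-/- pools. Its log2 ratios were -0.68, -0.25 and -0.32, a mean of -0.42 ± 0.23 (SD, n = 3; adjusted p = 0.143). Neither probe had overlapping groups. Probe 2 had log2 ratios of -0.67, -0.35 and -0.50, a mean of -0.51 ± 0.16 (SD, n = 3; adjusted p = 0.0823). Here array 1 was the lowest of the 3 arrays, unlike in Etv1.

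**Figure D3:**
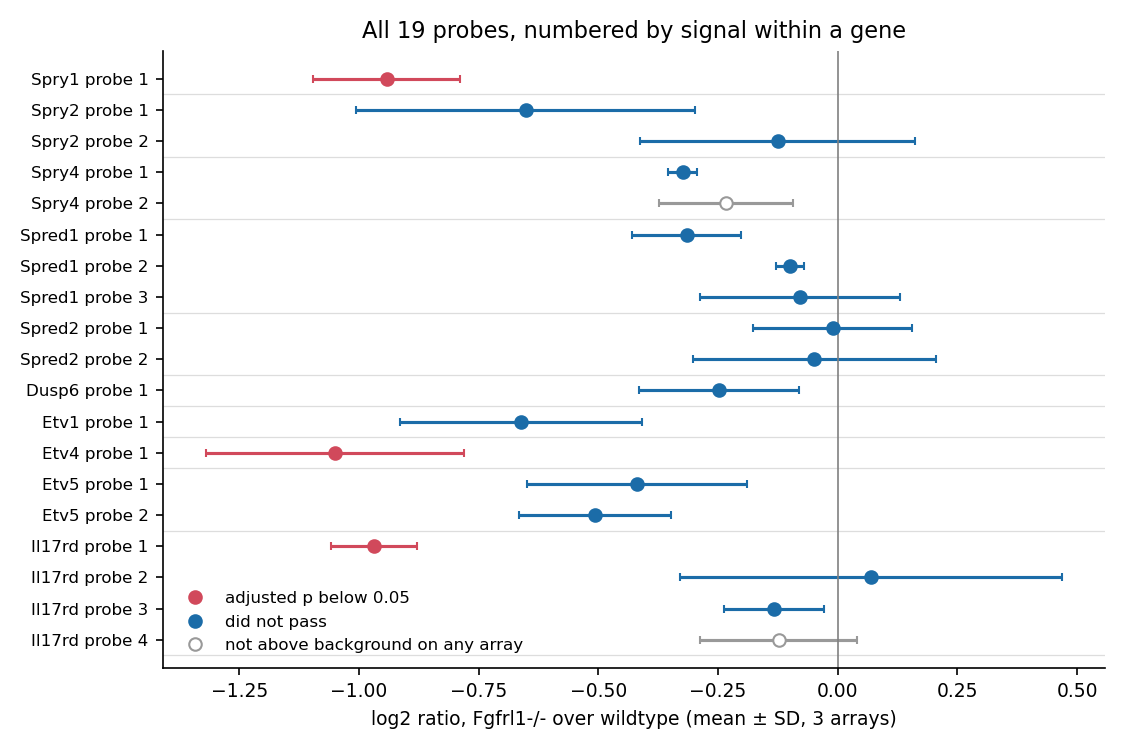
Mean log2 ratio of Fgfrl1-/- over wildtype (x axis) with SD over 3 arrays for each of the 19 probes, numbered by mean signal within a gene. The 3 probes in red passed, the open grey circles mark probes not above background on any array, and the 4 Il17rd probes show probe 1 near -0.97 and the others near 0.

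Of the 19 probes, 18 had a mean log2 ratio below 0 and 16 were above background on all arrays in both channels. Within arrays, Etv4 was lower than Etv5 by a log2 difference of -0.57, -0.49 and -0.84. Spry1 was lower than Spry4 by -0.75, -0.61 and -0.50, and Spred1 lower than Spred2 by -0.17, -0.41 and -0.33. Etv4 against Etv1 (-0.88, 0.04 and -0.33), Spry1 against Spry2 (-0.84, -0.17 and 0.14) and Spry2 against Spry4 (0.10, -0.44 and -0.64) had no common sign. An exact sign-flip test over 3 arrays cannot go below p = 0.25, so these 6 differences are given as a description with no test. The mean difference was -0.63 ± 0.18 (SD, n = 3) for Etv4 against Etv5, -0.62 ± 0.12 for Spry1 against Spry4 and -0.30 ± 0.12 for Spred1 against Spred2.

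The calls changed with the arrays used. Arrays 2 and 3 share a slide and a scan, and without array 1 all members but Spred2, 9 of 10, were called lower, where 10.1% of all probes were called lower. Without array 2, and likewise without array 3, no member and no other probe passed in the limma fit. At an unadjusted p below 0.05, 7 and 8 members were lower in these fits, as were 4.24% and 3.89% of all probes. With arrays 2 and 3 averaged to 1 value per slide none passed either, and 8 members and 4.2% of all probes were lower at an unadjusted p below 0.05. The ratio of each called gene kept its sign under each of the 15 other settings.

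**Figure D4:**
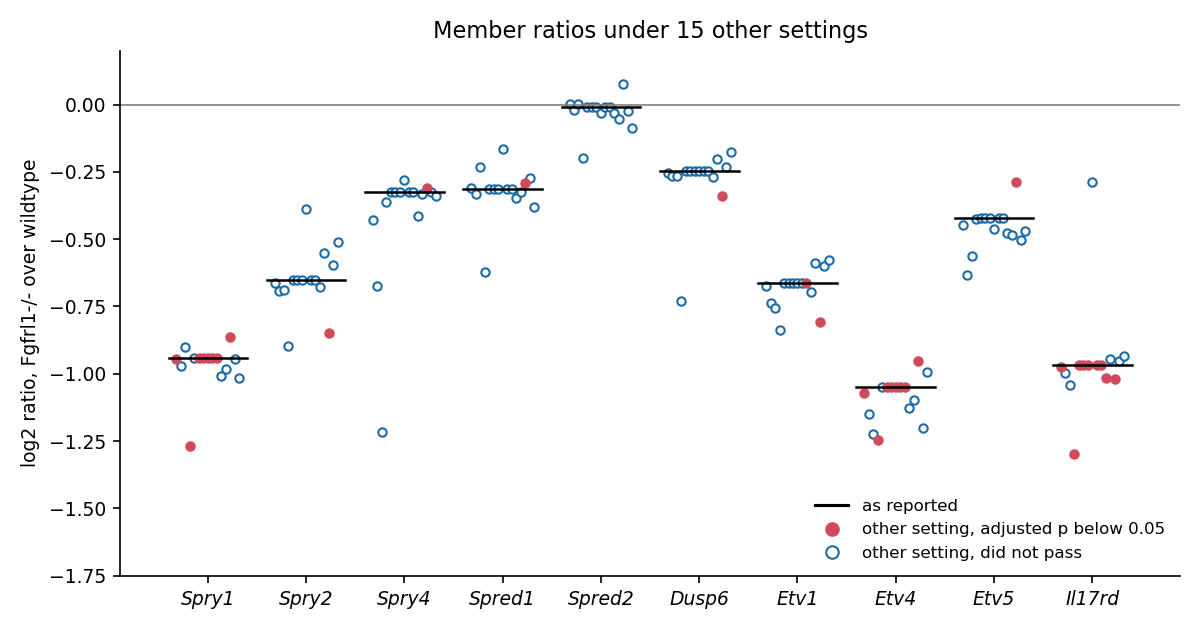
Log2 ratio of Fgfrl1-/- over wildtype (y axis) for each member under 15 other settings of background, scaling, filter, probe choice, test or arrays used, with the reported value as a black line. Filled red points passed at an adjusted p below 0.05 and open points did not; Il17rd stands at -0.29 where its probes were averaged.

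The related genes were read from lists. Of 11 other Sprouty, Spred and dual specificity phosphatase genes, 2 were called lower, none higher, and the median log2 ratio was -0.07. Dusp2, a phosphatase of the nucleus, had log2 ratios of -0.75, -1.03 and -1.01, a mean of -0.93 ± 0.15 (SD, n = 3; adjusted p = 0.0354). Dusp9, an ERK phosphatase, had a mean of -0.75 ± 0.0080 (SD, n = 3; adjusted p = 0.0345). Of 21 ETS factors outside the PEA3 subfamily none was called, with a median of -0.01, and the largest values were 0.49 for Elk3 (adjusted p = 0.0791) and 0.41 for Fli1 (adjusted p = 0.233).

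Upstream, 4 of 14 ligands and receptors were called lower and none higher, with a median of -0.13. Besides Fgfrl1 itself they were ligands. Fgf8 had a mean log2 ratio of -2.05 ± 0.34 (SD, n = 3; adjusted p = 0.0259). Gdnf, the ligand of Ret, was at -0.83 ± 0.18 (adjusted p = 0.0421) and Fgf9 at -0.65 ± 0.024 (adjusted p = 0.0407). The Ret probe was not above background in any wildtype pool. None of 21 adaptors and kinases between receptor and ERK was called, their median being 0.09 with loess and -0.27 with median centring. The largest were Gab1 at 0.53 (adjusted p = 0.0902) and Rps6ka3 at -0.44 (adjusted p = 0.126).

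Downstream, 1 of 14 immediate early and growth factor induced genes was called lower and none higher (median -0.06). This was Egr1, a zinc finger factor induced by ERK, with log2 ratios of -1.45, -2.34 and -2.59 that averaged -2.13 ± 0.60 (SD, n = 3; adjusted p = 0.0399). Of 4 ureteric bud genes known to need Etv4 and Etv5, Cxcr4, a chemokine receptor, was called lower at -1.08 ± 0.21 (SD, n = 3; adjusted p = 0.0346). The other members of that list were at 0.00 (Myb), 0.01 (Met) and 0.25 (Mmp14), and did not pass. These list calls changed with the arrays used. Without array 2, and likewise without array 3, no probe of any gene was called, and so no gene of these 6 lists. Without array 1 more list genes were called, as were 4172 of 41170 probes (10.1%) lower and 3494 higher. Of the immediate early genes 7 were then lower and 2 higher. The counts were 5 and 1 for the other Sprouty, Spred and phosphatase genes and 1 and 5 for the other ETS factors. They were 3 and 3 for the adaptors and kinases and 4 and 1 for the ligands and receptors. With median centring 1 of the 11 regulators and 3 of the 14 ligands and receptors were called lower. With dim probes left out, Dusp2, Dusp9, Egr1 and Cxcr4 did not pass, and 2 of 11 ligands and receptors did.

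**Figure D5:**
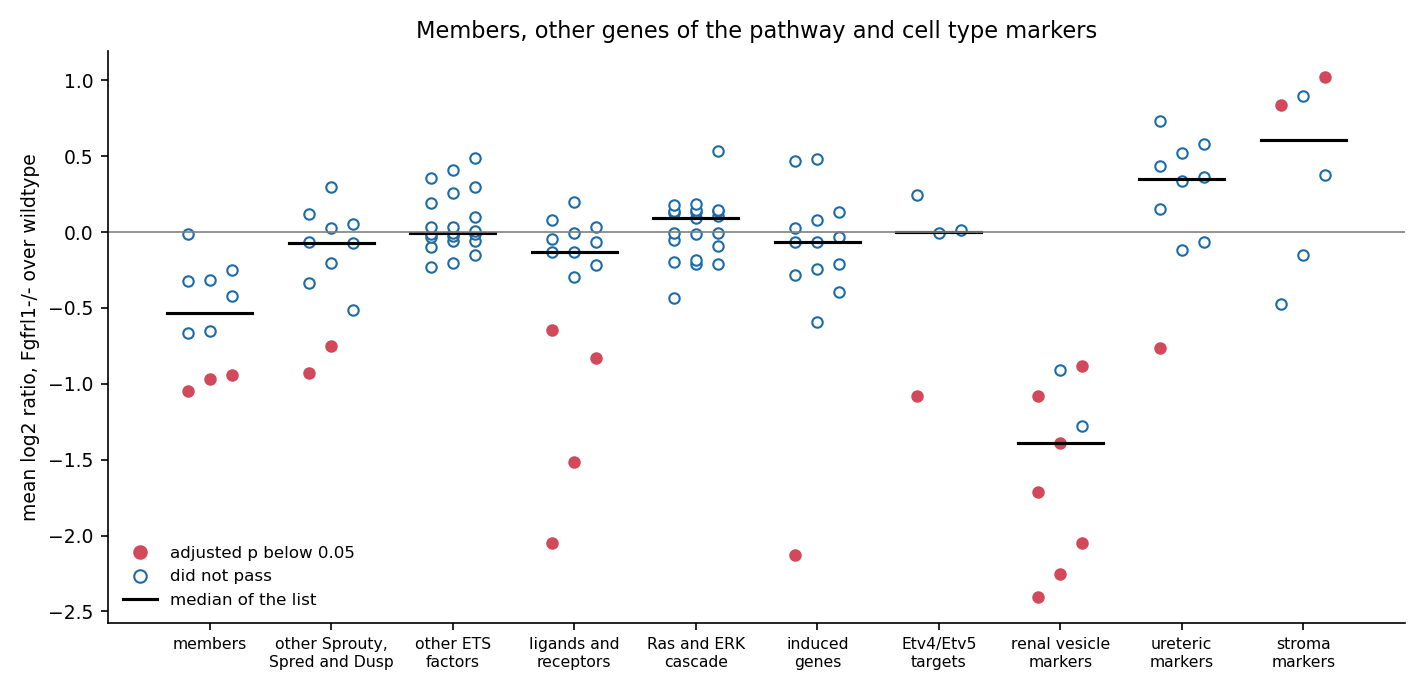
Mean log2 ratio of Fgfrl1-/- over wildtype (y axis, 3 arrays) of the 10 members, of 6 lists of related genes and of 3 lists of cell type markers, with 1 point per gene and the list median as a black line. The member median is -0.54, the renal vesicle markers lie lowest with a median of -1.39, and the stroma markers highest with a median of 0.60. All renal vesicle markers shown are genes that the paper reported as reduced on these same arrays.

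Markers of some cell types in the rudiment differed between the Fgfrl1-/- and wildtype channels, where genotype and dye cannot be told apart. Their part in the member values was not tested. Of 9 renal vesicle markers, 7 were called lower, the median log2 ratio was -1.39, and their summed signal was 7452 to 8277 in wildtype and 2111 to 3127 in Fgfrl1-/- pools. The lowest were Wnt4 (-2.40), Dkk1 (-2.25), Fgf8 (-2.05), which is also counted among the ligands, and Lhx1 (-1.72). Of 10 ureteric epithelium markers Wnt11 was called lower (-0.76, adjusted p = 0.0408) and the median was 0.35, with summed signals of 34390 to 40397 and 41886 to 54700. Of 8 cap mesenchyme markers Cited1 and Itga8 were called lower (both -0.78), and the median was -0.21. Eya1 (-0.42), Meox1 (-0.30), Sall1 (-0.11), Six2 (-0.05), Hoxd11 (-0.01) and Osr1 (0.05) did not pass. The summed signals were 18618 to 19609 in wildtype and 13373 to 14889 in Fgfrl1-/- pools. Of 6 stroma markers Pdgfra (1.02) and Col1a1 (0.84) were called higher. The summed signals were 52471 to 56489 in wildtype and 87064 to 97288 in Fgfrl1-/- pools. Each of these sums is weighted towards its brightest probes. The Col1a1 probe alone gave 28008 to 32886 in wildtype and 44669 to 63370 in Fgfrl1-/- pools. Foxd1 gave 9577 to 19778 and 22528 to 33345. Tcf21 (-0.48) and Tbx18 (-0.15) on the stroma list had means below 0 and did not pass. The paper measured Col1a1 by quantitative PCR as well and did not find it higher at E12.5. With median centring no stroma gene passed, the stroma median was 0.19, and Wnt11 did not pass. No marker of endothelium, erythroid cells, macrophages, skeletal muscle or neurons was called, out of 5 or 6 each. All 5 macrophage markers had a mean ratio above 0, with summed signals of 1156 to 1429 and 1494 to 2281. Without array 2, and likewise without array 3, no probe of any gene passed, the 7 called renal vesicle markers included. The renal vesicle median was -1.33 in both fits. Without array 1, 4172 of 41170 probes (10.1%) were called lower and 3494 higher. Among the markers 9 of 9 renal vesicle and 4 of 8 cap mesenchyme genes were then lower. Of the ureteric markers 6 were higher and 1 lower, and of the stroma markers 4 were higher and 2 lower. Also higher were 4 macrophage, 1 erythroid and 1 skeletal muscle markers.

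The promoters of the members were searched for ETS core motifs, since 3 members are ETS factors. RefSeq promoter entries (GRCm38.p6, the 250 bases before the start) numbered 10 for 8 members. Of these entries 9 held the core GGAA on either strand (TTCC on the other), as did 93.4% of 32851 promoters, and the entry without it was 1 of a pair for Etv5. None held CCGGAA or its extension CCGGAAGT, which overlap the core and were found in 12.0% and 2.88% of promoters. The entries of Spry1 (chr3:37639697-37639946, plus strand) and Il17rd (chr14:27038751-27039000, plus strand), called genes with an entry, are shown with the core on either strand in capitals.
Spry1 promoter: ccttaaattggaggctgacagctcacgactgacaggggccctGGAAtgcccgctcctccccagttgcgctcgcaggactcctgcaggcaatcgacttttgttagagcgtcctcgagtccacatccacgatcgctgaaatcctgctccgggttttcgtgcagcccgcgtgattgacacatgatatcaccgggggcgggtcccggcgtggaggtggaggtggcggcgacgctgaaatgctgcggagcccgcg
Il17rd promoter: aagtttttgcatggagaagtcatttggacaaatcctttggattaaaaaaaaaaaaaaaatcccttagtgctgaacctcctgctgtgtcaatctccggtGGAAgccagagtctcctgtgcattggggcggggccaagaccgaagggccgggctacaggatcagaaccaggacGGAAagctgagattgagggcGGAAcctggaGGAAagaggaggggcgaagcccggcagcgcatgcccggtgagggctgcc
The core occurs 1 time in the first and 4 times in the second sequence, against a median of 3.0 over all promoters. A match of these letters is a description and no evidence of binding, and the arrays carry no measurement at these positions.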

How the data were processed

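The deposited files are scanner output of 3 two-colour arrays, 1 pair of pools each. Labelling was done without amplification or dye swap, and the cRNA input is given as 600 ng. The authors extracted spot intensity with Agilent Feature Extraction, version 10 in the submitters' notes and 9.5.3.1 (array 1) or 10.5.1.1 (arrays 2 and 3) per the file headers. The deposited log2 table holds the authors' processed ratios. How it was normalized is not given in the sources used here, and its columns were taken as Fgfrl1-/- over wildtype because they correlated above 0 with the turned scanner ratios (r = 0.705, 0.718 and 0.706) and with the loess ratios computed here (r = 0.966, 0.895 and 0.913). The column medians are -0.018, 0 and 0.003. The scanner software's own log10 ratio, also deposited, is red over green and was turned.

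Median intensities were background corrected in limma 3.58.1 (R 4.3.3) with normexp and an offset of 50 and normalized by loess within each array, with control spots at weight 0. Outlier spots (107, 113 and 138) were dropped, spots of a probe averaged, and an intercept fitted to the 3 ratios with lmFit and eBayes. P-values were adjusted by Benjamini-Hochberg over 41174 probes. Signals per pool were scaled between arrays with Aquantile. Precision is limited by the number of arrays. The labels call the preparations individual. The p-values measure the spread of the 3 array ratios, with variances moderated over all probes. Arrays 2 and 3 share a slide and a scan, so this spread mixes slides with pools, and a dye effect common to all arrays is not in it. The fit was tested on simulated data.

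Each gene was represented by its probe of highest mean signal. Gene names stand in the file of array 1 and were joined to the others by spot and probe. All members were named, with genes of each list past the threshold, the largest 4 where more passed, or the largest 2 where none did. Members and lists were chosen with earlier results of these data known. The alternatives covered background, scaling, dim probes, outlier spots, probe choice, variance model, channels, the authors' table, slides and single arrays.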

Additional observations from a re-analysis of the deposited data

How the results depend on the processing

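The precision of 3 arrays and the lack of a dye swap limit these results, and dim probes depend most on the background correction. In the report, 3 member genes (3 probes) were lower, among 164 probes lower and 119 higher, and the median member ratio was -0.54. Spry1 and Etv4 passed under 8, and Il17rd under 9, of the 15 alternatives. Each array already pairs the pools of the same number. The fit without that pairing, on separate channels with no replicate block, called 4 member genes lower, with Etv1 added, 5 member probes lower, and 237 probes lower and 226 higher overall. With a normexp offset of 0 the counts were 0 member genes, 0 member probes, 0 probes lower and 0 higher, with a median of -0.68. The scanner software's ratio likewise gave 0, 0, 0 and 0, with a median of -0.72, and 1 value per slide 0, 0, 0 and 0. At an unadjusted p below 0.05, 2458, 3253 and 1727 probes were lower under these 3 limma fits, and 7, 7 and 8 members. Leaving out dim probes gave 1 member gene and 1 member probe (Il17rd), 34 probes lower and 7 higher. The authors' table gave 1 and 1 (Il17rd), 32 and 4. Median centring gave 91 lower and 2 higher, with a median of -0.78, no background subtraction 72 higher, and averaged probes 114 lower with a member median of -0.34. Leaving out 1 array gave 0 to 9 member genes, 0 to 11 member probes, 0 to 4172 probes lower and 0 to 3494 higher, and a median of -0.57 to -0.49. The highest counts came without array 1. Of probes that did not pass, some turned sign. Spry2 probe 2 was at 0.0112 under median centring and Spred2 probe 1 at 0.0030 without background subtraction and 0.0018 in the scanner ratio. With 1 value per slide Spred2 probe 2 was at 0.0154, and in the scanner ratio Il17rd probe 4 was at 0.0242. Leaving out 1 array gave -0.216 to 0.0395 for Spry2 probe 2, -0.194 to 0.0102 for Spred1 probe 3, -0.0871 to 0.0780 for Spred2 probe 1, -0.176 to 0.0783 for Spred2 probe 2 and -0.16 to 0.204 for Il17rd probe 2. The causes were not tested.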
